A study of Oryza sativa with 9 samples.

Results

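The genes described here are those whose RNA was raised in young rice panicles of both *osmads58* mutant lines. Levels are given as CPM, the count of a gene per 1000000 counts of its library. A gene was taken if it averaged at least 1 CPM over the 9 libraries, if every mutant library lay above every wild-type library, and if the mean of each mutant line was at least 2 times the wild-type mean. Of 56143 genes in the table, 20560 averaged 1 CPM or more, and 324 of these met the rule. The 300 with the largest smaller ratio were kept, the smaller ratio being the lower of the 2 line means over the wild-type mean, with 0.1 CPM added to each. The measured levels chose these genes, so their differences from the wild type are described without a test.

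RNA came from whole panicles of 1 cm. The *osmads58* CRISPR group had 2 libraries of genotype osmads58-/-, each from an independent transgenic line and each a mixture of 8 panicles of 4 genotyped, male-sterile plants. The *osmads58* dSpm group, labelled 58Z, had 4 libraries of genotype osmads58-/- named 1, 2, 4b and 5b, from a line that carries a dSpm transposon in the second intron of OsMADS58, still makes some OsMADS58 transcript and is fertile. The wild type had 3 libraries. The study's methods name the japonica cultivar Nipponbare, but do not say in which cultivar either mutant line was made. In bulk panicles, fewer cells of a type and less RNA per cell cannot be told apart.

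OsMADS58 is a C-class floral homeotic protein of the MADS-box family. MADS-domain transcription factors bind DNA elements called CArG boxes as dimers and larger complexes, and can raise or repress their targets. C-class proteins act in the inner whorls of the flower, where they specify stamens and carpels and end the growth of the floral meristem. A young panicle holds many spikelets, whose stamens then contain cells that are entering the germ line and the tapetum, the nurse tissue of the anther. The raised genes are given by the identifiers of the rice MSU annotation, in which the digits after Os give the chromosome and the later digits the order along it. No gene name or product was matched to them here, so no role is given beyond the study's own pathway lists.

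OsMADS58 itself (LOC_Os05g11414) had 0.295 and 0.525 CPM in the *osmads58* CRISPR libraries, 1.94, 0.721, 1.87 and 2.1 CPM in *osmads58* dSpm 1, 2, 4b and 5b, and 7.36, 3.15 and 3.84 CPM in wild type 1 to 3. All 6 mutant libraries lay below all wild-type libraries. Total counts per library were between 65192657 and 83042245. Among counts from 1 to 40, between 37.2% and 40.7% per library were multiples of 4, so a read pair may weigh more than 1 count, and limits drawn from counts may be too narrow. Wild type 1 and *osmads58* dSpm 1 stood apart from the other libraries together: their deviations from their group means correlated across genes at r = 0.51, a description in which the genes are not independent. Scaling by TMM factors, which balance the libraries over most genes, moved the log2 ratio by -0.25 for *osmads58* CRISPR and -0.11 for *osmads58* dSpm against the wild type. With TMM-scaled CPM, 221 genes met the rule, and 216 of them were among the 300. These are 72% of the 300 and 97.7% of the TMM list.

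Most of the 300 genes were expressed at a low level in the wild type and were higher in the mutants by a moderate factor. The median gene had a mean of 5.06 CPM in *osmads58* CRISPR, 5.0 CPM in *osmads58* dSpm and 1.28 CPM in the wild type. The smaller ratio had a median of 2.55 and an upper quartile of 3.29, and 97 genes reached 3, 37 reached 5 and 21 reached 10. The wild-type mean was below 0.1 CPM in 19 genes, from 0.1 to under 1 CPM in 109 and at 1 CPM or more in 172, of which 18 were at 10 CPM or more. A wild-type mean below 0.1 CPM was found at 47 of 20560 expressed genes (0.229%). The rule chose and ranked genes by their ratio to the wild-type mean, which favours such genes, so these shares are not compared. At 7 genes no count was recorded in any wild-type library.

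The libraries did not weigh equally in the group. Relative to the wild-type mean, the median ratio of the 300 genes was 2.86 and 3.14 in the libraries of *osmads58* CRISPR, 2.24, 2.75, 3.47 and 3.19 in *osmads58* dSpm 1, 2, 4b and 5b, and 0.766, 1.08 and 1.11 in wild type 1 to 3. The lowest mutant median was that of *osmads58* dSpm 1 and the lowest wild-type median that of wild type 1. Wild type 1 was the lowest of its group at 199 of the 300 genes (66.3%, against 50.8% of expressed genes), and *osmads58* dSpm 1 the lowest mutant library at 127 (42.3%, against 37.1%). Without *osmads58* dSpm 1, 764 genes met the rule. The number was 502 without wild type 2, 531 without wild type 3 and 634 without both *osmads58* dSpm 1 and wild type 1.

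**Figure D1:**
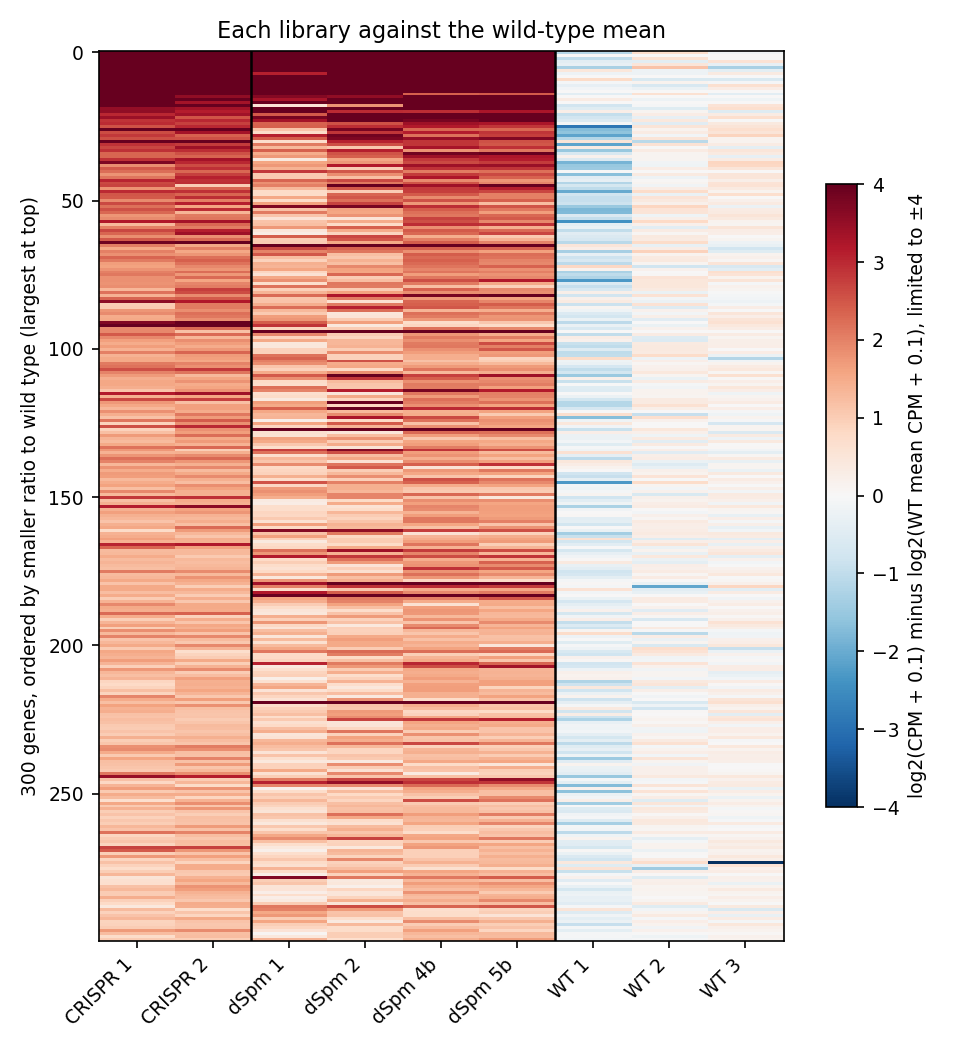
Heat map of the 300 genes (rows, largest smaller ratio at the top) in the 9 libraries (columns, *osmads58* CRISPR, then *osmads58* dSpm, then wild type), coloured by the log2 difference from the wild-type mean with 0.1 CPM added and limited to ±4. Every mutant column is red or pale red as the rule demands, *osmads58* dSpm 1 is the palest of them, and wild type 1 is the bluest wild-type column.

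Across all 20560 expressed genes, 7.78% had all 6 mutant libraries above all 3 wild-type libraries, as the 300 had by choice, and 2.9% had them all below. The mirror rule, with the wild-type mean at least 2 times that of each line, found 107 lowered genes. These figures depend on the scaling. By column sums the median expressed gene had a log2 ratio to the wild type of 0.24 in *osmads58* CRISPR and 0.14 in *osmads58* dSpm. With TMM scaling these medians were -0.01 and 0.03, and 221 raised and 165 lowered genes were found. In edgeR's quasi-likelihood fit over 27251 genes, with a Benjamini-Hochberg adjusted p below 0.05 and a log2 fold change beyond 1 as the call, 106 of the 300 were called in *osmads58* CRISPR against the wild type, all of them higher. Of all tested genes 5.55% were called there, 2.04% higher and 3.51% lower. In *osmads58* dSpm against the wild type 95 of the 300 were called, all higher, against 1.45% of all tested genes, 1.18% higher and 0.268% lower. Both comparisons share the wild-type libraries and were used by the rule, so nothing is read from these counts.

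The gene with the largest smaller ratio was LOC_Os01g35330, on chromosome 1. It had 329 and 263 CPM in *osmads58* CRISPR, 462, 525, 419 and 119 CPM in *osmads58* dSpm 1, 2, 4b and 5b, and 0.12, 0.695 and 0.342 CPM in the wild type. The lowest mutant library, *osmads58* dSpm 5b, was still far above the highest wild-type library, and the line means were 767-fold and 989-fold the wild-type mean for *osmads58* CRISPR and *osmads58* dSpm. This gene also had the second highest mean of the 300 over the mutant libraries.

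LOC_Os03g43100, on chromosome 3, had 46.9 and 37.4 CPM in *osmads58* CRISPR, 92.5, 66.3, 84.2 and 84.0 CPM in *osmads58* dSpm, and no count in the 3 wild-type libraries. Taking 3 counts per library as what a count of 0 allows, its mean was at least 1136-fold higher in *osmads58* CRISPR and at least 2203-fold higher in *osmads58* dSpm than in the wild type. The transcript was thus recorded in every mutant library and in no wild-type library, and both *osmads58* CRISPR libraries lay below all 4 *osmads58* dSpm libraries. The other genes at 0 in the wild type were LOC_Os10g35160, LOC_Os11g45040, LOC_Os05g34490, LOC_Os11g44030, LOC_Os12g36850 and LOC_Os10g41330, with means between 0.139 and 2.59 CPM in *osmads58* CRISPR and between 1.65 and 3.46 CPM in *osmads58* dSpm.

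LOC_Os10g24004 had 25.5 and 19.5 CPM in *osmads58* CRISPR, 54.7, 14.9, 12.8 and 10.4 CPM in *osmads58* dSpm 1, 2, 4b and 5b, and 0, 0.206 and 0.0976 CPM in the wild type. *osmads58* dSpm 1 was well above the other 3 libraries of its line. LOC_Os11g05840 had 9.83 and 7.83 CPM in *osmads58* CRISPR, 7.04, 5.11, 11.9 and 11 CPM in *osmads58* dSpm, and 0, 0 and 0.0976 CPM in the wild type. LOC_Os07g09760 had 5.89 and 8.24 CPM in *osmads58* CRISPR, 5.83, 8.87, 12.2 and 12.7 CPM in *osmads58* dSpm, and 0, 0.0772 and 0 CPM in the wild type. In both of these genes the lines overlapped and the wild type was at or next to 0.

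LOC_Os11g35300 had 14.3 and 8.41 CPM in *osmads58* CRISPR, 21.2, 22.3, 16.8 and 17.4 CPM in *osmads58* dSpm, and 0, 0.437 and 0 CPM in the wild type. LOC_Os06g11830 had 4.49 and 3.14 CPM in *osmads58* CRISPR, 7.56, 8.79, 8.65 and 10.1 CPM in *osmads58* dSpm, and 0.157, 0 and 0 CPM in the wild type. LOC_Os10g41838 had 17.0 and 12.7 CPM in *osmads58* CRISPR, 17.2, 19.1, 22.2 and 23.1 CPM in *osmads58* dSpm, and 0.482, 0.579 and 0.5 CPM in the wild type. At these 3 genes both *osmads58* CRISPR libraries were below every *osmads58* dSpm library, but the difference between the lines was not called.

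LOC_Os07g35350 had 3.6 and 2.5 CPM in *osmads58* CRISPR, 0.897, 12.1, 7.11 and 7.34 CPM in *osmads58* dSpm 1, 2, 4b and 5b, and 0, 0 and 0.0488 CPM in the wild type. Its *osmads58* dSpm libraries spanned a wide range, with *osmads58* dSpm 1 the lowest mutant library. LOC_Os10g35160 was even across the mutants, with 2.66 and 2.53 CPM in *osmads58* CRISPR and 1.86, 2.93, 2.79 and 2.6 CPM in *osmads58* dSpm, against no count in the wild type. With 3 counts per wild-type library the lines were at least 69.8-fold and 68.6-fold higher, or less if a read pair weighs more than 1 count. LOC_Os11g45180 was even as well, with 3.76 and 2.49 CPM in *osmads58* CRISPR, 3.36, 3.33, 3.1 and 2.75 CPM in *osmads58* dSpm, and 0.0241, 0 and 0.146 CPM in the wild type. The smaller ratio of LOC_Os03g43100 was 423, and 85.3 with 0.5 CPM added in place of 0.1. That of LOC_Os01g35330 was 609, 335 with 0.5 CPM added and 894 without wild type 2.

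**Figure D2:**
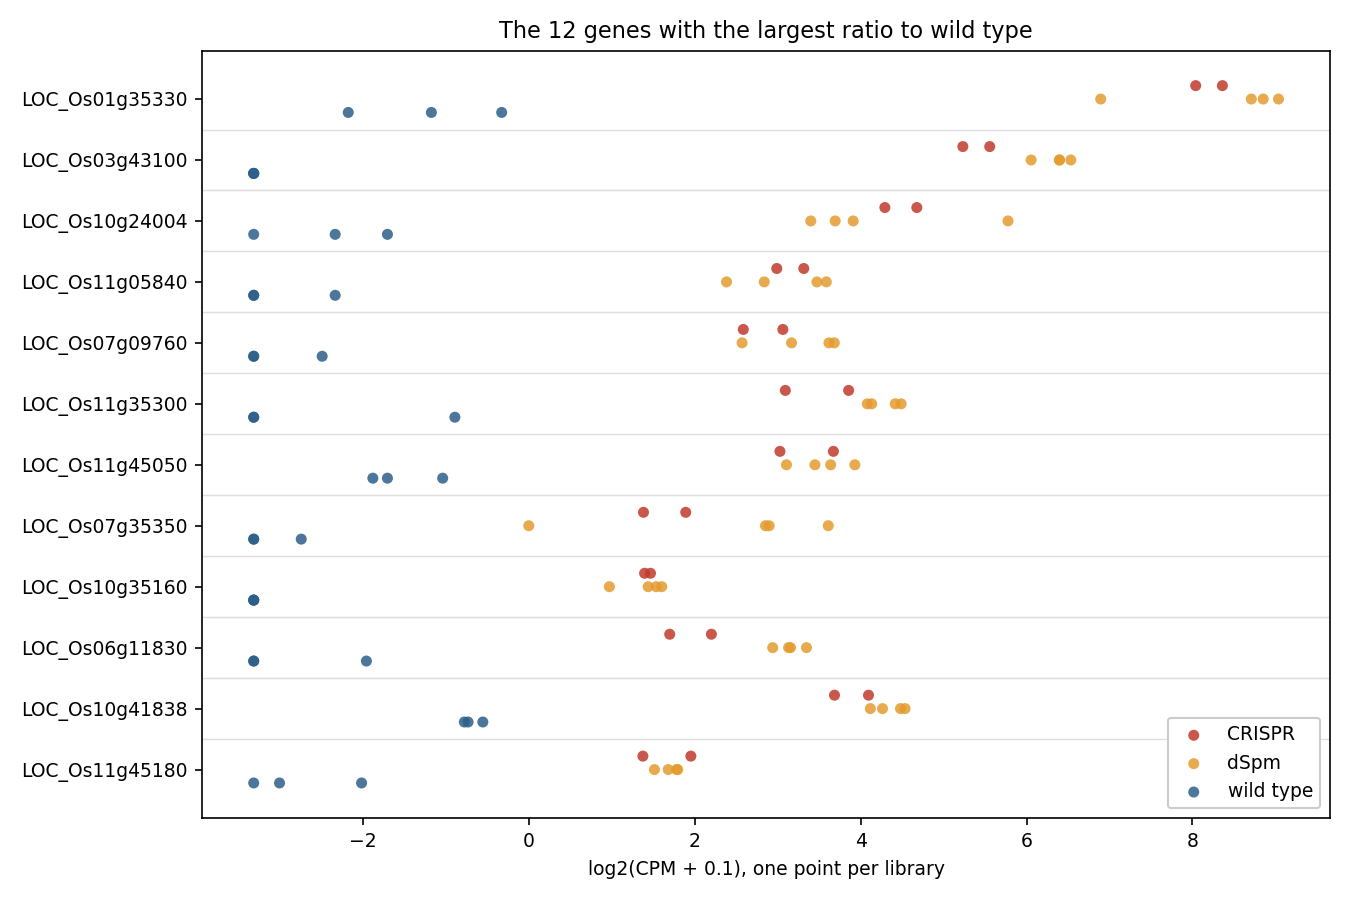
Levels of the 12 genes with the largest smaller ratio, as log2 of CPM with 0.1 added, with 1 point per library and the groups stacked in each row as *osmads58* CRISPR, *osmads58* dSpm and wild type from top to bottom. The mutant points of each gene form a cluster far to the right of the wild-type points, and those of *osmads58* dSpm spread widest at LOC_Os07g35350, between 0.897 and 12.1 CPM.

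The genes with the highest levels in the mutants differed in kind, since they were already well expressed in the wild type. LOC_Os02g02890 had 899 and 966 CPM in *osmads58* CRISPR, 257, 419, 629 and 473 CPM in *osmads58* dSpm, and 117, 225 and 223 CPM in the wild type. Both *osmads58* CRISPR libraries exceeded all *osmads58* dSpm libraries, with a difference of 0.95 on the log2 scale (standard error 0.30) and an adjusted p of 0.0917 from edgeR's quasi-likelihood test, which is not a call. *osmads58* dSpm 1 and wild types 2 and 3 lay close together.

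LOC_Os04g53950 had 197 and 234 CPM in *osmads58* CRISPR, 77.4, 77.9, 345 and 291 CPM in *osmads58* dSpm 1, 2, 4b and 5b, and 27.6, 62.3 and 69.3 CPM in the wild type. *osmads58* dSpm 4b and 5b were above both *osmads58* CRISPR libraries, and *osmads58* dSpm 1 and 2 just above the wild type. LOC_Os08g09610 showed the same split of *osmads58* dSpm 4b and 5b from 1 and 2, with 88.9 and 87.9 CPM in *osmads58* CRISPR, 73.7, 65.9, 153 and 117 CPM in *osmads58* dSpm, and 26.3, 37.5 and 42.5 CPM in the wild type. LOC_Os02g44860 averaged 145 ± 3.67 CPM in *osmads58* CRISPR (SD, n = 2), 143 ± 53.3 CPM in *osmads58* dSpm (n = 4) and 65.7 ± 11.1 CPM in the wild type (n = 3). LOC_Os02g53200 averaged 146 ± 14 CPM in *osmads58* CRISPR, 116 ± 37.8 CPM in *osmads58* dSpm and 57.3 ± 11.1 CPM in the wild type, over the same libraries. Both of these genes had line means 2 to 3 times the wild-type mean by column sums. With TMM scaling their smaller ratios were 1.87 and 1.86, under the 2-fold line.

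Among the 300 kept genes, those with the lowest ratio of means were LOC_Os12g03200, LOC_Os02g39200 and LOC_Os12g22810, between 2.01 and 2.02. Some of the 24 genes beyond the limit of 300 lay nearer to 2, such as LOC_Os01g43430 at 2.001. LOC_Os12g03200 had 17.3 and 17.2 CPM in *osmads58* CRISPR, 22.3, 13.6, 23.3 and 27.3 CPM in *osmads58* dSpm, and 7.96, 8.21 and 9.55 CPM in the wild type. Just outside the 2-fold line were LOC_Os10g32500, LOC_Os03g08550 and LOC_Os08g36010, with ratios of means between 1.99 and 1.998. LOC_Os03g08550 had 28.4 and 33.9 CPM in *osmads58* CRISPR, 24.3, 29.6, 38.4 and 34 CPM in *osmads58* dSpm, and 13.1, 14.9 and 18.8 CPM in the wild type. The genes on either side of the line were alike, and 1275 genes met every part of the rule except the 2-fold line.

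The lines were also compared with each other. The rule set no contrast between them, but it asked both for 2 times the wild-type mean and ranked genes by the lower line, which limits how far they can differ, so the shares beside all genes are descriptions. The mean of *osmads58* CRISPR was above that of *osmads58* dSpm at 155 of the 300 genes and below it at 145, by CPM of the column sums, to which TMM scaling adds a shift of -0.14 (log2) between these lines. The fitted log2 fold change of *osmads58* CRISPR against *osmads58* dSpm had a median of -0.11 over the 300 genes (quartiles -0.50 and 0.32), against -0.05 over all tested genes (quartiles -0.57 and 0.42). It was called at 21 of the 300 genes, or 7%, against 5.36% of all tested genes. Of these, 7 were higher in *osmads58* CRISPR (1.44% of all tested genes) and 14 were lower (3.93% of all tested genes). The unadjusted p was below 0.05 at 55 of the 300 genes (18.3%), against 23.7% of all tested genes. Both *osmads58* CRISPR libraries lay above all *osmads58* dSpm libraries at 53 of the 300 genes and below all of them at 47, against 28.9% and 17.9% of expressed genes. The count of calls rests on the 2 *osmads58* CRISPR libraries: without either of them calls nearly vanished, over all tested genes as among the 300. Of the 300 genes, 59 averaged under 1 CPM over the libraries outside the higher line, and so passed the minimum only through that line (14 through *osmads58* CRISPR and 45 through *osmads58* dSpm). They hold 10 of the 21 calls, and the other 241 genes hold 11, 6 higher and 5 lower in *osmads58* CRISPR. The count of 21 was 38 with DESeq2, 33 without wild type 1 and *osmads58* dSpm 1 together, 13 when *osmads58* dSpm 4b was left out, and 9 when either wild type 2, wild type 3 or *osmads58* dSpm 5b was. The share called of all tested genes moved as well. It was 8.46% with DESeq2, 8.1% without wild type 1 and *osmads58* dSpm 1, and 4.66% without *osmads58* dSpm 4b. In the fits with 9 calls it was between 3.65% and 3.73%.

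**Figure D3:**
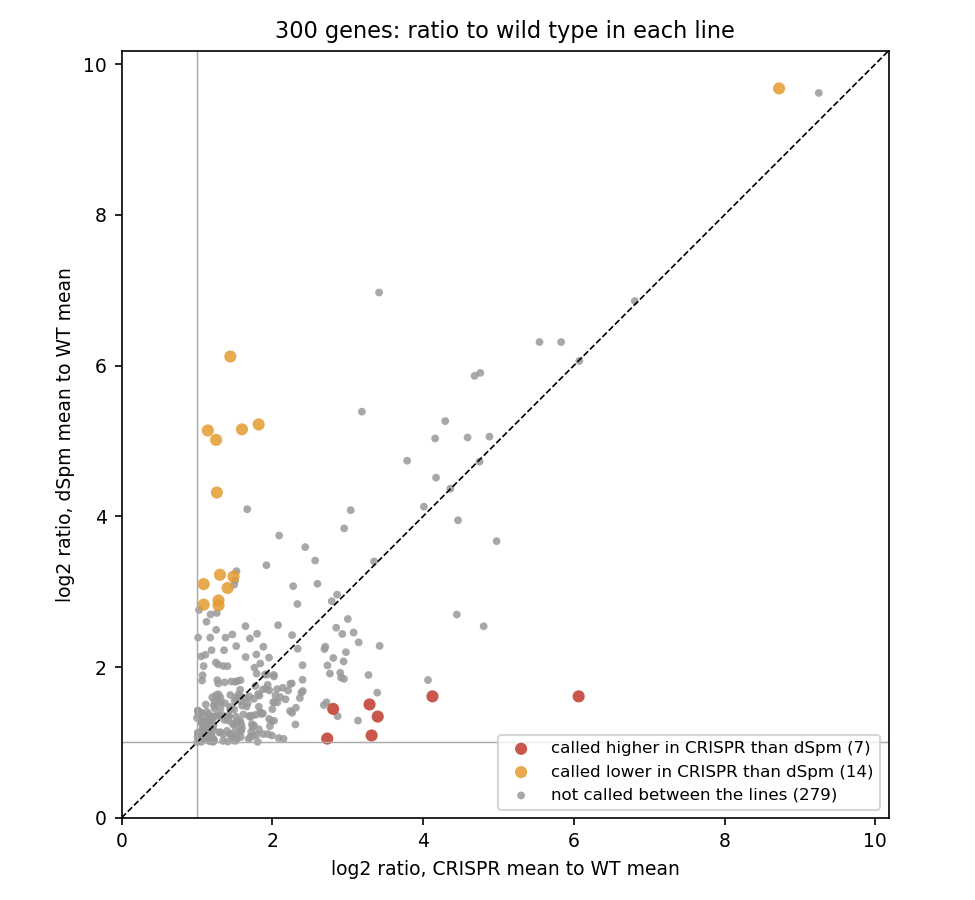
Log2 ratio to the wild-type mean in *osmads58* CRISPR (horizontal) and in *osmads58* dSpm (vertical) for the 300 genes, with 0.1 CPM added, the diagonal dashed and the 2-fold lines in grey. The 7 genes called higher in *osmads58* CRISPR than in *osmads58* dSpm lie below the diagonal and the 14 called lower lie above it, while the other 279 gather mostly near the 2-fold corner.

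Some genes reached 1 CPM on average only through *osmads58* dSpm, and are described without a test. LOC_Os08g42750 had 0.251 and 0.55 CPM in *osmads58* CRISPR, 5.09, 9.69, 17.8 and 18.2 CPM in *osmads58* dSpm, and 0, 0.154 and 0.0976 CPM in the wild type. LOC_Os01g71310, which is on the study's oxidation-reduction list, had 0.62 and 0.563 CPM in *osmads58* CRISPR, 17.9, 5.8, 11.2 and 8.79 CPM in *osmads58* dSpm, and 0.145, 0.103 and 0.39 CPM in the wild type. At both genes the lines did not overlap, and *osmads58* CRISPR stood little above the wild type.

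Of the genes called lower in *osmads58* CRISPR, LOC_Os04g46400 had 2.13 and 3.05 CPM in *osmads58* CRISPR, 10.6, 13.9, 9.41 and 9.0 CPM in *osmads58* dSpm, and 0.867, 1.13 and 1.49 CPM in the wild type, a log2 difference of -2.19 between the lines (standard error 0.34, edgeR adjusted p = 0.0075). With TMM scaling its smaller ratio to the wild type was 1.82, under the 2-fold line. LOC_Os11g01140 had 3.1 and 2.29 CPM in *osmads58* CRISPR, 10.3, 8.1, 6.85 and 8.18 CPM in *osmads58* dSpm, and 0.939, 1.43 and 0.769 CPM in the wild type, a difference of -1.78 on the log2 scale (standard error 0.36, edgeR adjusted p = 0.0216). Among the 17 alternatives run for each of these genes, the call was lost only without *osmads58* CRISPR 1 or 2. LOC_Os02g56860 had 6.41 and 7.96 CPM in *osmads58* CRISPR, 13.4, 41.6, 20.4 and 19.8 CPM in *osmads58* dSpm, and 1.52, 2.99 and 3.0 CPM in the wild type. Its log2 fold change of -1.86 (standard error 0.46, edgeR adjusted p = 0.0418) was near the threshold and lost its call in 8 of 17 alternatives.

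The genes called higher in *osmads58* CRISPR had *osmads58* dSpm levels between those of *osmads58* CRISPR and the wild type. The rule and the call fix this order together, so nothing is read from it. LOC_Os04g36070 had 14 and 19.5 CPM in *osmads58* CRISPR, 2.5, 2.3, 6.04 and 4.98 CPM in *osmads58* dSpm, and 0.566, 1.89 and 2.04 CPM in the wild type, with a log2 difference of 1.96 between the lines (standard error 0.49, edgeR adjusted p = 0.0438). LOC_Os12g02710 had 16.4 and 19.1 CPM in *osmads58* CRISPR, 2.8, 2.45, 7.69 and 7.31 CPM in *osmads58* dSpm, and 1.73, 1.92 and 1.51 CPM in the wild type, with a difference of 1.69 on the log2 scale (standard error 0.42, edgeR adjusted p = 0.0442). In both genes *osmads58* dSpm 4b and 5b were above *osmads58* dSpm 1 and 2. LOC_Os02g35230 had 21.8 and 22.3 CPM in *osmads58* CRISPR, 4.4, 4.36, 10.9 and 7.62 CPM in *osmads58* dSpm, and 1.95, 3.62 and 4.15 CPM in the wild type, with a difference of 1.57 on the log2 scale (standard error 0.38, edgeR adjusted p = 0.038). LOC_Os05g50160 had 10.2 and 13.8 CPM in *osmads58* CRISPR, 3.01, 4.34, 6.0 and 5.08 CPM in *osmads58* dSpm, and 1.46, 1.66 and 1.77 CPM in the wild type, with a difference of 1.26 on the log2 scale (standard error 0.27, edgeR adjusted p = 0.0273). These 4 calls were lost in 6 to 9 of 17 alternatives each.

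Other genes that reached 1 CPM on average only through a single line were picked after their values were seen. LOC_Os10g29400 had 8.15 and 7.76 CPM in *osmads58* CRISPR, 0.785, 0.0614, 0.119 and 0.106 CPM in *osmads58* dSpm, and 0, 0 and 0.061 CPM in the wild type. Its *osmads58* dSpm libraries other than number 1 were thus barely above the highest wild-type library. LOC_Os10g41330 had 0.177 and 0.1 CPM in *osmads58* CRISPR, 2.37, 3.28, 2.65 and 4.23 CPM in *osmads58* dSpm, and no count in the wild type. Taking 3 counts per wild-type library, its bounds over the wild type were 3.73-fold in *osmads58* CRISPR and 84.4-fold in *osmads58* dSpm. Both are too high if a read pair weighs more than 1 count, so the lower bound may show no excess.

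The call for LOC_Os03g43100 (log2 fold change -1.10 between the lines, standard error 0.22, edgeR adjusted p = 0.0303) sat close to both thresholds and was lost in 7 of 17 alternatives.

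The level of a library left out of the choice was not used by the rule, but it is read against libraries that were. That choice raises the share by itself, and the share of expressed genes is not a matched baseline. These shares are therefore descriptions. Each library in turn was left out, the genes were chosen again from the other 8, and the left-out library was read at the chosen genes. *osmads58* CRISPR 1 lay above every wild-type library at 281 of 300 genes (93.7%, against 50% of expressed genes), and *osmads58* CRISPR 2 at 285 of 300 (95%, against 51.7%). For *osmads58* dSpm 2, 4b and 5b the share was 84.3%, 98.7% and 97%, against 37.0%, 47.6% and 47.9% of expressed genes. For *osmads58* dSpm 1 it was 46%, against 34.1%, the lowest share of the 9 libraries. Wild type 1, 2 and 3 lay below every mutant library at 86.3%, 77% and 73.7% of the genes chosen without them, against 29.6%, 19.1% and 18.0% of expressed genes.

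**Figure D4:**
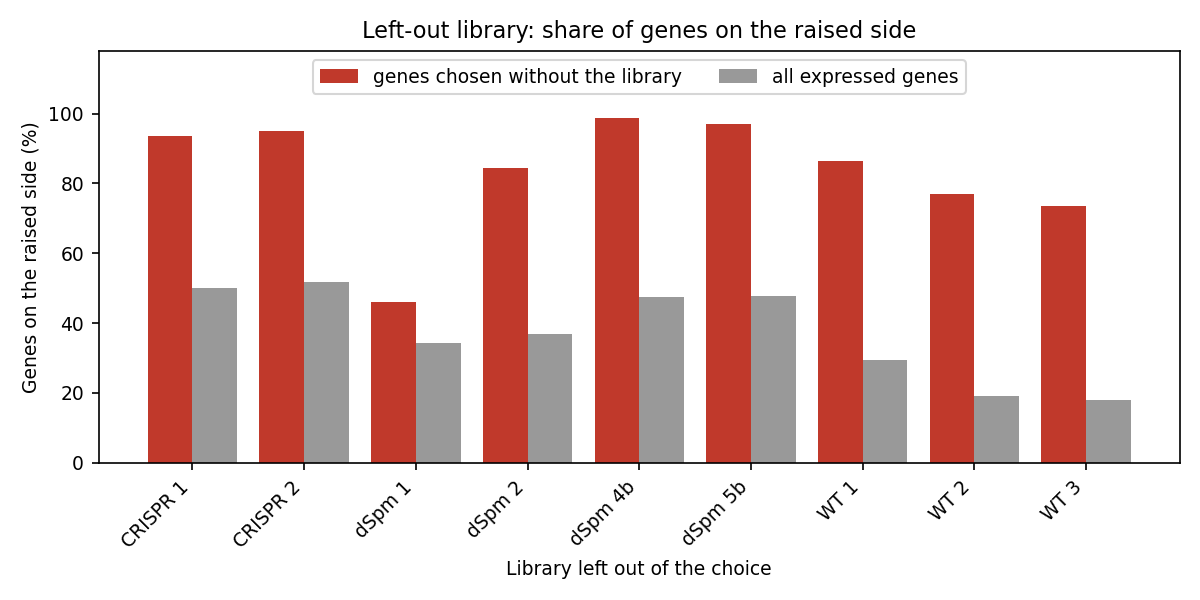
Share of genes (percent) at which a left-out library fell on the raised side, above every wild-type library for a mutant library or below every mutant library for a wild-type library, among genes chosen without it (red) and among all expressed genes (grey). The red bar is below 50% at *osmads58* dSpm 1, with 46%, and at 73.7% or more in the other 8 libraries.

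Within *osmads58* dSpm, the libraries named 4b and 5b were more often the higher pair. Both lay above libraries 1 and 2 at 149 of the 300 genes (49.7%, against 36% of expressed genes) and below them at 42 (14%, against 22.6%). The rule used these levels, and high levels in 4b and 5b help a gene to pass it, so these shares are not compared. The summed level of 12 germ-cell markers, among them MEL1, which encodes an Argonaute protein of rice germ cells, and PAIR2, a meiotic chromosome-axis gene, was 208 and 266 CPM in *osmads58* CRISPR, 142, 171, 445 and 463 CPM in *osmads58* dSpm 1, 2, 4b and 5b, and 228, 239 and 247 CPM in the wild type. MEL1 made up much of this sum, with 284 and 309 CPM in *osmads58* dSpm 4b and 5b. Without it the sum was 158 and 178 CPM in *osmads58* CRISPR, 96.9, 117, 162 and 153 CPM in *osmads58* dSpm 1, 2, 4b and 5b, and between 120.7 and 120.9 CPM in the wild type. DMC1A and HEI10 had other orders, with DMC1A at 1.85 and 1.79 CPM in *osmads58* CRISPR, between 2.43 and 7.56 CPM in *osmads58* dSpm and between 4.57 and 10.7 CPM in the wild type. None of the 12 was at 0 in any library, and none of them was among the 300 genes. Of the 12, 1 was called higher in *osmads58* CRISPR than in *osmads58* dSpm and than in the wild type, and none was called in *osmads58* dSpm against the wild type. The summed level of 9 photosynthesis genes was 166 and 139 CPM in *osmads58* CRISPR, 134, 107, 127 and 126 CPM in *osmads58* dSpm, and 85.5, 101.2 and 98.1 CPM in the wild type, all mutant libraries being above all wild-type libraries. Of these 9, 1 was called higher in *osmads58* CRISPR than in the wild type and none in *osmads58* dSpm. OsPsaG was at 0 in all 9 libraries, so the sum rests on 8 genes. Among these 8, only OsPsbO had every mutant library above every wild-type library, and it was the highest of them in each mutant library. At each of the others, mutant and wild-type libraries overlapped. The order of the sums was thus not that of most single genes. The part of either marker list in the raised genes was not tested.

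The raised genes were spread over all 12 chromosomes. Chromosome 2 held 51 of them (17%, against 11.9% of expressed genes), while chromosome 1 held 25 (8.33%, against 14.2%) and chromosome 3 held 20 (6.67%, against 13.4%). The 19 genes with a wild-type mean below 0.1 CPM were placed otherwise, with 5 on chromosome 11, 4 on chromosome 10, 3 on chromosome 7 and none on chromosomes 1, 2, 4 and 9. These counts were not tested.

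**Figure D5:**
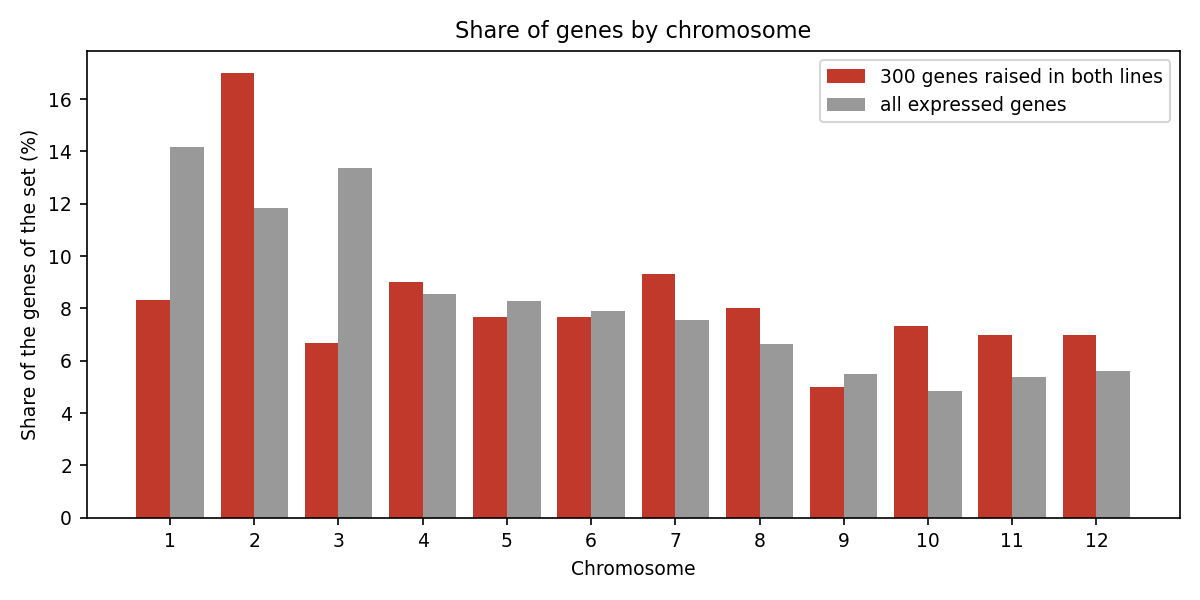
Share of the 300 genes raised in both lines (red) and of all expressed genes (grey) on each of the 12 chromosomes, in percent of each set. The red bar exceeds the grey one most on chromosome 2 (17% against 11.9%), and falls short of it most on chromosome 3 (6.67% against 13.4%).

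Some of the raised genes were neighbours. At 59 of the 300 genes (19.7%), another of the 300 lay within 10 loci of the annotation's numbering, against 2229 of 20195 other expressed genes (11%). Of the 107 lowered genes, 10.3% had another lowered gene that near, against 4.06% of other expressed genes. The 59 genes formed 27 runs, 4 of them with 3 genes or more. The longest lay on chromosome 11 and held LOC_Os11g44910, LOC_Os11g44960, LOC_Os11g45040 and LOC_Os11g45050, with 8 expressed genes in its span. The chromosomes were also divided into bins of 200 loci, 322 of which held an expressed gene. The bin of chromosome 11 from number 44000 on, picked after the counts were seen, had 7 of 36 expressed genes among the 300 (19.4%, against 1.46% of all expressed genes), and the bin of chromosome 2 from number 44000 on had 7 of 107 (6.54%). The study's resequencing list names coding changes in the CRISPR plants at LOC_Os11g44520 and LOC_Os11g45970 in the same stretch, and their part in these levels was not tested.

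In the run on chromosome 11, LOC_Os11g45050 had 12.6 and 8.04 CPM in *osmads58* CRISPR, 8.49, 15.1, 10.8 and 12.3 CPM in *osmads58* dSpm, and 0.385, 0.206 and 0.171 CPM in the wild type. LOC_Os11g45040 had 1.52 and 1.89 CPM in *osmads58* CRISPR, 1.99, 2.29, 2.09 and 2.37 CPM in *osmads58* dSpm, and no count in the wild type. LOC_Os11g44960 had 7.59 and 6.35 CPM in *osmads58* CRISPR, 4.89, 5.58, 10.2 and 9.24 CPM in *osmads58* dSpm, and 0.831, 0.618 and 1.17 CPM in the wild type. At the first and the third of these genes the lines overlapped, while at LOC_Os11g45040 *osmads58* CRISPR lay just below *osmads58* dSpm. LOC_Os11g44910 had another order, with 3.45 and 2.66 CPM in *osmads58* CRISPR, 0.56, 0.368, 1.42 and 1.06 CPM in *osmads58* dSpm, and 0.289, 0.154 and 0.159 CPM in the wild type. It reached 1 CPM on average only through *osmads58* CRISPR, and LOC_Os11g45040 only through *osmads58* dSpm. Both are described without a test between the lines.

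The run on chromosome 2 mixed genes of opposite order between the lines. LOC_Os02g56920, on the oxidation-reduction list, had 44.4 and 59.9 CPM in *osmads58* CRISPR, 9.68, 19.4, 37.9 and 33.4 CPM in *osmads58* dSpm, and 3.41, 8.66 and 8.44 CPM in the wild type, so that *osmads58* CRISPR was the higher line. Its neighbour LOC_Os02g56860, given above, was called lower in *osmads58* CRISPR. LOC_Os02g56810 averaged 4.56 ± 0.716 CPM in *osmads58* CRISPR (SD, n = 2), 5.02 ± 0.893 CPM in *osmads58* dSpm (n = 4) and 1.97 ± 0.399 CPM in the wild type (n = 3), and the lines overlapped.

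On chromosome 10, LOC_Os10g35040, LOC_Os10g35110 and LOC_Os10g35160 made another run. LOC_Os10g35110 had 16.3 and 17.9 CPM in *osmads58* CRISPR, 21.1, 42.3, 31.1 and 21.1 CPM in *osmads58* dSpm, and 6.74, 4.86 and 6.03 CPM in the wild type. LOC_Os10g35040 averaged 1.00 CPM in *osmads58* CRISPR, 2.18 ± 0.76 CPM in *osmads58* dSpm (SD, n = 4) and 0.409 ± 0.262 CPM in the wild type (n = 3). In both genes *osmads58* CRISPR lay below every *osmads58* dSpm library. The difference was not called at LOC_Os10g35110. LOC_Os10g35040 reached 1 CPM on average only through *osmads58* dSpm and is described without a test between the lines.

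On chromosome 12, the neighbours LOC_Os12g36830 and LOC_Os12g36850 had like patterns, reached 1 CPM on average only through *osmads58* dSpm and were picked after their values were seen. LOC_Os12g36850 had 0.281 and 0.125 CPM in *osmads58* CRISPR, 2.72, 2.48, 5.65 and 2.99 CPM in *osmads58* dSpm, and no count in the wild type. LOC_Os12g36830 had 0.413 and 0.263 CPM in *osmads58* CRISPR, 2.59, 7.33, 5.48 and 2.68 CPM in *osmads58* dSpm, and 0.0723, 0 and 0 CPM in the wild type. If such neighbours are close copies, reads may be divided between them in the counting, so their levels are uncertain. The third gene of the run, LOC_Os12g36750, averaged 24.3 ± 0.512 CPM in *osmads58* CRISPR, 31.7 ± 11.9 CPM in *osmads58* dSpm and 11.1 ± 1.87 CPM in the wild type, with no call between the lines.

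Of all expressed genes, 1.46% were among the 300. The study's pathway lists were chosen on these samples. The oxidation-reduction list held 6 of the 300 among its 183 expressed genes (3.28%), the cell-cycle list 1 among 18 (5.56%), and the meiosis list 0 among 25. None was among the 8 expressed photosynthesis genes and the 28 meiotic genes of its further lists. On the oxidation-reduction list, LOC_Os04g39430 had 15.9 and 18.2 CPM in *osmads58* CRISPR, 11.1, 15.0, 28 and 20.1 CPM in *osmads58* dSpm, and 6.07, 8.83 and 8.56 CPM in the wild type. LOC_Os08g37456 had 8.70 and 10.1 CPM in *osmads58* CRISPR, 9.96, 7.79, 12.4 and 9.49 CPM in *osmads58* dSpm, and 3.77, 3.83 and 5.16 CPM in the wild type. Both genes had overlapping lines with means a little over 2 times the wild-type mean. The cell-cycle gene, LOC_Os03g31880, had 5.29 and 8.70 CPM in *osmads58* CRISPR, 1.37, 6.26, 7.71 and 6.31 CPM in *osmads58* dSpm, and 0.193, 1.00 and 1.16 CPM in the wild type. *osmads58* dSpm 1 was close to the wild type at this gene, and the other 5 mutant libraries were well above it.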

How the data were processed

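RNA-seq of rice panicles of 1 cm covered 2 *osmads58* CRISPR, 4 *osmads58* dSpm and 3 wild-type samples, 1 library each. Per the study's methods, the authors mapped reads to the MSU 7.0 genome with HISAT2 2.1.0 and computed levels with StringTie 1.3.3b. The deposited values are estimated counts per gene, not normalized by the authors and already whole, so rounding changed none. How coverage became counts is not given in the sources used here. Every per-sample column was used. The members and gene lists were chosen with earlier results of these data known.

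Counts were divided by the column sum to give CPM, and the rule was applied to them. Differences were fitted in R 4.3.3 with edgeR 4.0.16 (filterByExpr by group, TMM, glmQLFit and glmQLFTest, 1 fit of 3 groups), with Benjamini-Hochberg adjustment over all 27251 tested genes. Each standard error divides the log2 fold change by the square root of F. On simulated data for *osmads58* CRISPR against *osmads58* dSpm (26304 genes), 60 of 100 genes changed by 2 on the log2 scale and 82 of 100 changed by 3 were called, with 5 false calls. The simulated libraries varied independently, and only genes with higher counts were changed. These figures therefore do not cover deviations shared between libraries, such as that of wild type 1 and *osmads58* dSpm 1, or genes of low count. P-values set a fold change against the spread between these libraries. That spread was estimated over the 3 groups together, because *osmads58* CRISPR had only 2 libraries.

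Named genes were OsMADS58, the 12 with the largest smaller ratio, the 6 with the highest mutant mean, 3 on either side of the 2-fold line, up to 5 called genes of at least 5 CPM in each direction between the lines, up to 4 of the study's pathway lists with the highest mutant mean, and the 3 longest runs. Others are said to be picked afterwards. For single genes that averaged 1 CPM only through the higher line, no test result between the lines is given. They remain in the counts of calls. Alternatives were other scalings, filters, thresholds, DESeq2 1.42.0, the replicate number as a block, counts divided by 4 and each library left out. Sets of libraries left out together in the tests between the lines were added after seeing the data.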

Additional observations from a re-analysis of the deposited data

Results flagged for a closer look

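Among 41 named genes, the level of 1 library stood far from the other 3 of *osmads58* dSpm by Dixon's ratio at 1 gene: LOC_Os10g24004, at 54.7 CPM in *osmads58* dSpm 1. Over the 300 genes such a library was found at 22 (7.33%), and chance gives it in about 1 group in 20. The lines differed by edgeR's test at LOC_Os04g46400 (-2.19), LOC_Os02g56860 (-1.86), LOC_Os11g01140 (-1.78) and LOC_Os03g43100 (-1.10), as log2 fold changes of *osmads58* CRISPR against *osmads58* dSpm. They differed in the other direction at LOC_Os04g36070 (1.96), LOC_Os12g02710 (1.69), LOC_Os02g35230 (1.57) and LOC_Os05g50160 (1.26).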

How the results depend on the processing

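The number of genes meeting the rule, 324, followed its settings. It was 115 at 3 times and 799 at 1.5 times the wild-type mean, 126 with a minimum of 5 CPM and 534 with none, 815 with overlapping libraries allowed, 1240 with only *osmads58* dSpm 4b and 5b in that line, 634 without wild type 1 and *osmads58* dSpm 1, and between 299 and 764 with 1 library left out. TMM-scaled CPM (221 genes), medians in place of means and *osmads58* dSpm 1 and 2 alone kept it within 1.5 times. The lowered genes, 107, numbered 165 with TMM-scaled CPM, 212 without wild type 1 and *osmads58* dSpm 1, and between 93 and 251 with 1 library left out, the highest being without *osmads58* dSpm 2 and 196 without wild type 1.

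Of the 300 genes, 21 were called between the lines (7 higher and 14 lower in *osmads58* CRISPR). DESeq2 called 38 (12 and 26), an adjusted p below 0.01 left 3 (0 and 3), fitting only the lines compared gave 14 (4 and 10), and the fit without wild type 1 and *osmads58* dSpm 1 gave 33 (7 and 26). The shares called of all tested genes were 8.46%, 1.54%, 3.63% and 8.1% in the same order. With 1 *osmads58* dSpm or wild-type library left out the counts were between 9 and 22, between 1 and 7 higher, and between 8 and 18 lower. The share of all tested genes was then between 3.65% and 6.1%. Without an *osmads58* CRISPR library, the lone library left in that group is assumed to vary like the other groups, so no counts are given. Against the wild type, the 106 calls in *osmads58* CRISPR became 186 with DESeq2 (9.5% of all tested genes) and 23 at an adjusted p below 0.01 (0.84%). They numbered between 52 and 146 with 1 *osmads58* dSpm or wild-type library left out (between 2.35% and 9.38%). The 95 calls in *osmads58* dSpm became 232 with DESeq2 (3.99%), 53 with only the groups compared (0.923%) and 34 at an adjusted p below 0.01 (0.367%). With 1 library left out they numbered between 24 and 143 (between 0.24% and 3.16% of all tested genes).

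Replicate numbers were shared between groups without a stated pairing, and the deviations of same-numbered libraries correlated between -0.08 and 0.51, so they were not taken as pairs. With the replicate block, 28 genes were called between the lines (14 higher and 14 lower), 45 in *osmads58* dSpm and 127 in *osmads58* CRISPR against the wild type. Of all tested genes, 10.5%, 0.558% and 9.32% were called there. Wild type 3 and *osmads58* dSpm 4b and 5b share their number with no other library, so the block takes up their levels. This fit thus compares the groups through the libraries numbered 1 and 2 only. The share of genes with a neighbour, 19.7%, was 12.7% within 5 loci and 32.7% within 20, where other expressed genes had 5.94% and 19.8%. The cause of these changes was not tested. The median log2 fold change between the lines, -0.11, was between -0.14 and -0.01 in the other alternatives but 0.09 with the replicate block, and among the tests of named genes none changed direction. Among the named genes, 50 of the alternative tests between the lines lost a call. Levels near 0 in the wild type limit the ratios, since they rest on a few counts.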
